A study of Mus musculus with 12 samples.

Results

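The 7 genes of MHC class II antigen presentation measured here were H2-Aa, H2-Ab1, H2-Eb1, H2-DMa, H2-Oa, Cd74 and Ciita, followed in natural killer (NK) cells that lacked the microRNA miR-142. They were taken by name, each from its probe set (a group of array probes for 1 transcript) that the platform annotation pairs with that gene symbol alone. Each of the 7 had 1 such probe set, and 19938 symbols had at least 1 in all. Of the 7, 6 passed a filter on dim genes, a mean log2 signal above 5.49 over the 12 arrays, and were tested among 11963 genes. Ciita lay below the filter and is described by its values, with a fit over all 19938 symbols named where it is used.

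NK cells were sorted as CD3-negative and NK1.1-positive from C57BL6 mice aged 7 to 10 weeks. The 4 groups were wild type spleen, miR-142 knockout spleen, wild type bone marrow and knockout bone marrow, with 3 arrays each and with age and sex matched between genotypes. The comparisons asked which genes differed between the genotypes and might contribute to the knockout phenotype. The arrays of a group are called biological replicates, but nothing says whether each came from its own mouse, so p-values measure the spread between these samples. The sources used here do not say how the knockout was made or whether it was limited to some cell types.

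MHC class II molecules carry peptides from endosomes to the cell surface and show them to CD4 T cells. Their alpha and beta chains assemble on the invariant chain (Cd74), travel to endosomes, and exchange the remnant of that chain for a peptide with the help of DM, which DO restrains. Transcription of most of these genes is led by CIITA, a co-activator that does not bind DNA itself and is recruited by RFX, CREB and NF-Y proteins sitting on the X1, X2 and Y boxes of class II promoters. Dendritic cells, B cells and macrophages are the usual class II cells of the mouse, and in human blood activated NK cells can also carry class II on their surface.

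The X1 and Y letters were looked for in the genes' own sequences. Below are the 150 bases before the start site of the alpha chain gene H2-Aa and the beta chain gene H2-Eb1, whose signals were higher in knockout spleen, and of the DO genes H2-Oa and H2-Ob, whose signals were not higher there. H2-Ob is no member and was added as the DO partner. The sequences come from RefSeq (build GRCm38.p6) and are written 5′ to 3′ on the gene's own strand. Capitals mark an X1 core (GNAAC) followed on the same strand by a Y core (ATTGG).
H2-Aa, chr17:34287824-34287973, minus strand: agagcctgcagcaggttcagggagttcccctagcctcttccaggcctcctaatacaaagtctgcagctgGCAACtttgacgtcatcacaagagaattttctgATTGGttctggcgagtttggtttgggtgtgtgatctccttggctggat
H2-Eb1, chr17:34305717-34305866, plus strand: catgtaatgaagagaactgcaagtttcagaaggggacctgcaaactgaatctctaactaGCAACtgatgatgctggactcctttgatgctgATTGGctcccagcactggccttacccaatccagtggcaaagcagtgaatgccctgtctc
H2-Oa, chr17:34092229-34092378, plus strand: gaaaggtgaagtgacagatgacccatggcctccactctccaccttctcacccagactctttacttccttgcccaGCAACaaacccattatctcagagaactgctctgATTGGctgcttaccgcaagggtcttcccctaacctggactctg
H2-Ob, chr17:34238755-34238904, plus strand: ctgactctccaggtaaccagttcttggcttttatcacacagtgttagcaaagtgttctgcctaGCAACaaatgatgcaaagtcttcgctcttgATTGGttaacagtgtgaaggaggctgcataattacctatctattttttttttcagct

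The X1 core began 81 bases before the start site in H2-Aa, 91 in H2-Eb1, 76 in H2-Oa and 87 in H2-Ob. The Y core began 48, 59, 43 and 57 bases before it, with 28, 27, 28 and 25 bases between the cores. Windows of 300 bases (250 before to 50 after the start) of all 32851 RefSeq promoters were searched on both strands. GNAAC was found in 84.8% of them and ATTGG in 37.4%, while the pair on 1 strand with 15 to 30 bases between was found in 2.79%. A longer X1 core, GNAACNNNT, which contains the shorter one, was in 32.5%, and its pair with ATTGG was in 0.630%, including H2-Eb1 and H2-Ob but not H2-Aa or H2-Oa. The shorter core was chosen after the windows were seen. Neither of the 2 windows listed for H2-DMa held a pair. They begin at 34122582 and 34125268 on chr17, inside the listed span of the gene (34119693 to 34139101). Other start sites of H2-DMa were therefore not read, and a pair there is not excluded. The window of H2-Eb2, another class II beta chain gene that lay below the filter, held both the shorter and the longer pair and is not printed. No window was listed for H2-Ab1 or Ciita. Cd74 was left out of the windows read gene by gene, so whether it holds a pair is not given. A match in letters is a description and says nothing of whether a factor was bound, and the pair occurs here in genes that rose and in genes that did not.

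Before the members, the arrays were checked against their labels. Mir142 stood between 6.77 and 8.25 on the log2 scale in the 6 wild type arrays and between 4.05 and 4.70 in the 6 knockout arrays, which did not overlap. Of 10 genes that mark NK cells, among them Ncr1 and Klrb1c, all 10 were tested and 0 were called between genotypes in spleen or in bone marrow (limma, Benjamini-Hochberg adjustment, 2 and 1 at an unadjusted p under 0.05). Over both tissues 2 of the 10 rose, where 8.81% of all tested genes were called higher. They were Gzma, by 0.23, and Il2rb, by 0.22 (limma, adjusted p = 0.0338 and 0.0364). Numbers that the descriptions give to the arrays form 2 ranges, of 7 and 5 arrays. In the smaller one were 1 wild type array (number 3) and 2 knockout arrays (1 and 2) of the spleen and, of the bone marrow, wild type 2 and 3, so all 3 knockout bone marrow arrays lay in the other. What the ranges stand for is not given, and the range was a covariate of the fit, so a fitted difference need not equal the difference of the means.

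In the spleen, class II presentation genes were higher in knockout NK cells: H2-Aa, H2-Ab1, H2-Eb1, Cd74 and H2-DMa rose, by 0.69 to 2.00 on the log2 scale, and H2-Oa was not called. That was 5 of the 6 tested genes, where 5.48% of all tested genes were called higher. The median difference of the 6 was 1.23, against -0.01 over all tested genes. In bone marrow H2-DMa alone was called, 1 of 6, where 3.92% of all tested genes were called higher, and the median was 0.56 against -0.01. Over both tissues the same 5 genes as in spleen were called, where 8.81% of all tested genes were called higher, with a median of 0.87 against -0.01. The members and the gene lists were chosen with earlier results of these data known. Their shares and medians, set beside those of all tested genes, are therefore a description. In these sorted bulk samples, more cells of a type and more RNA per cell cannot be told apart. The same holds for fewer cells and less RNA per cell.

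**Figure D1:**
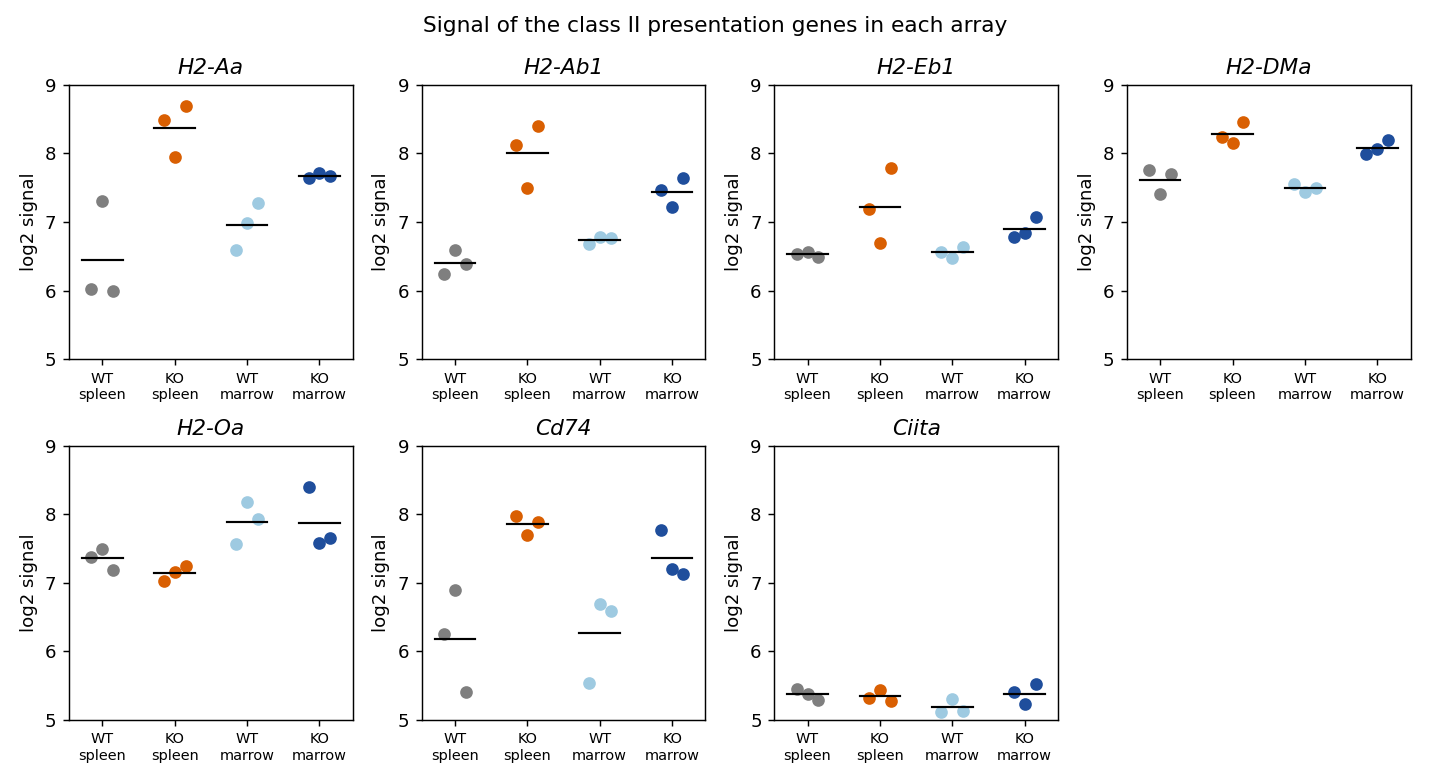
Log2 signal of each of the 7 class II presentation genes in the 12 arrays, in groups of 3 (points are arrays, in replicate order, and bars are group means). Knockout arrays lie above all wild type arrays of their tissue for H2-Aa, H2-Ab1, H2-Eb1, H2-DMa and Cd74, and not for H2-Oa or Ciita, whose values stay between 5.12 and 5.52.

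H2-Aa encodes the alpha chain of the class II molecule A, the I-A of mouse immunology. Its log2 signal was 6.02, 7.31 and 5.99 in wild type spleen and 8.49, 7.94 and 8.69 in knockout spleen. Marrow values were 6.58, 6.99 and 7.27 in wild type and 7.64, 7.72 and 7.67 in knockout. The knockout arrays lay above the wild type arrays in both tissues, and wild type spleen 2 stood 1.30 or more above the other arrays of its group. The fitted difference was 2.00 ± 0.33 in spleen (limma, adjusted p = 0.00247, n = 3 arrays per group), a 4.01-fold higher signal with a 95% interval of 2.45 to 6.57. In bone marrow it was 0.59 ± 0.36 (adjusted p = 0.346), which did not pass.

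H2-Ab1 encodes the beta chain that pairs with it. The wild type spleen arrays stood at 6.24, 6.59 and 6.39 and the knockout spleen arrays at 8.12, 7.50 and 8.40. The wild type bone marrow arrays stood at 6.68, 6.78 and 6.76 and the knockout bone marrow arrays at 7.46, 7.23 and 7.65. All knockout arrays were above all 6 wild type arrays. The rise in spleen was 1.66 ± 0.20 (limma, adjusted p = 0.000268, n = 3 arrays per group), or 3.16-fold (2.34 to 4.25), the smallest p among the members there. The difference in bone marrow was 0.59 ± 0.22 (adjusted p = 0.126).

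H2-Eb1 encodes the beta chain of the second class II molecule, E. C57BL6 mice are known to lack a working E alpha gene and carry no E molecule on the cell surface, so the H2-Eb1 transcript has no alpha partner of its own. Its signal was 6.53, 6.57 and 6.48 in wild type spleen, close together, and 7.19, 6.69 and 7.78 in knockout spleen. The bone marrow arrays gave 6.57, 6.47 and 6.63 in wild type and 6.78, 6.85 and 7.07 in knockout. The genotypes did not overlap in either tissue, with the knockout spleen arrays spread over 1.09 and the wild type ones over 0.08. The rise was 0.80 ± 0.19 in spleen (limma, adjusted p = 0.0211, n = 3 arrays per group), 1.74-fold (1.30 to 2.32), and the difference was 0.14 ± 0.21 in bone marrow (adjusted p = 0.73). The spleen call was lost without knockout spleen 3 (0.44, adjusted p = 0.219), without knockout spleen 1 (0.0562) and without each wild type spleen array (0.0662, 0.0626 and 0.0501).

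Cd74, the invariant chain, blocks the peptide groove of new class II molecules and directs them to endosomes. It stood at 6.25, 6.89 and 5.40 in wild type spleen and at 7.98, 7.69 and 7.89 in knockout spleen. In bone marrow it stood at 5.53, 6.69 and 6.59 in wild type and at 7.77, 7.20 and 7.12 in knockout. The wild type arrays of each tissue differed among themselves by more than 1.1, and still every knockout array was above them. Cd74 rose by 1.69 ± 0.38 in spleen (limma, adjusted p = 0.016, n = 3 arrays per group), 3.22-fold (1.81 to 5.73). Without wild type spleen 3, its lowest array, the difference was 0.93 (adjusted p = 0.174), and without knockout spleen 3 it was 1.67 (adjusted p = 0.0934). In bone marrow the difference was 1.07 ± 0.42 (adjusted p = 0.148), with a 95% interval in folds of 1.11 to 3.97, and it passed only without wild type spleen 3 (1.45, adjusted p = 0.0222).

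H2-DMa encodes the alpha chain of DM, which speeds the exchange of the invariant chain remnant for peptide. Its wild type spleen arrays were at 7.75, 7.41 and 7.69 and its knockout spleen arrays at 8.24, 8.16 and 8.45. Its wild type bone marrow arrays were at 7.56, 7.44 and 7.50 and its knockout bone marrow arrays at 7.99, 8.07 and 8.19. The arrays of a group lay close together, and the smallest gap between genotypes was 0.41 in spleen and 0.43 in bone marrow. The rise was 0.69 ± 0.12 in spleen (limma, adjusted p = 0.00408, n = 3 arrays per group), 1.62-fold (1.34 to 1.95). It was 0.53 ± 0.14 in bone marrow (adjusted p = 0.0329), 1.45-fold (1.18 to 1.78). The spleen call was lost without knockout spleen 3 (adjusted p = 0.0536). In bone marrow the call did not hold when any 1 wild type marrow array, knockout marrow array 2 or 3, or wild type spleen array 3 was left out (adjusted p from 0.0535 to 0.173). The beta chain genes of DM, H2-DMb1 and H2-DMb2, have no probe set of their own in the annotation and were not analysed here.

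H2-Oa and H2-Ob encode the chains of DO, the inhibitor of DM, and their signals moved otherwise. H2-Oa was 7.38, 7.50 and 7.19 in wild type spleen and 7.03, 7.15 and 7.25 in knockout spleen. The marrow arrays had 7.56, 8.18 and 7.93 in wild type and 8.40, 7.58 and 7.66 in knockout. The genotypes overlapped in both tissues, with differences of -0.22 ± 0.22 in spleen (limma, adjusted p = 0.63, n = 3 arrays per group) and 0.00 ± 0.24 in bone marrow (adjusted p = 0.995). H2-Ob was 6.42, 5.83 and 5.76 in wild type spleen and 5.40, 5.51 and 5.43 in knockout spleen. Bone marrow gave 6.30, 5.93 and 5.90 in wild type and 5.44, 5.23 and 5.67 in knockout. Within each tissue all its knockout arrays lay below its wild type arrays. Its knockout means, 5.45 in both tissues, lie under the filter of 5.49, so it was tested only because its wild type arrays are brighter, and the size of its fall is limited by that dim side. H2-Ob fell by 0.75 ± 0.19 in bone marrow (limma, adjusted p = 0.0291, n = 3 arrays per group) and differed by -0.61 ± 0.12 over both tissues (adjusted p = 0.00308), and its spleen difference of -0.48 ± 0.17 did not pass (adjusted p = 0.111). The bone marrow call did not hold when wild type spleen array 3, wild type marrow array 1, or knockout marrow array 1 or 2 was left out, nor where only the bone marrow arrays were fitted (-0.59, adjusted p = 0.0513).

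Ciita, whose product switches on class II genes, was dim in every array. Its signal was 5.45, 5.38 and 5.28 in wild type spleen and 5.32, 5.44 and 5.27 in knockout spleen. Bone marrow arrays had 5.12, 5.30 and 5.13 in wild type and 5.40, 5.23 and 5.52 in knockout. The genotypes overlapped in both tissues, and all 12 arrays fell within 0.40. With all 19938 symbols in the fit, the knockout difference was -0.04 ± 0.11 in spleen (limma, adjusted p = 0.93, 95% interval -0.28 to 0.21, n = 3 arrays per group) and 0.21 ± 0.13 in bone marrow (adjusted p = 0.394, -0.06 to 0.49). A log2 difference between dim signals is compressed on these arrays, so a change in a low level of Ciita may not be detectable in this way. The remaining chain genes, H2-Ea and H2-Eb2, also lay below the filter, with highest arrays of 5.0 and 5.33, with spleen differences of -0.11 ± 0.09 and 0.01 ± 0.12 in the same fit (adjusted p = 0.672 and 0.99).

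**Figure D2:**
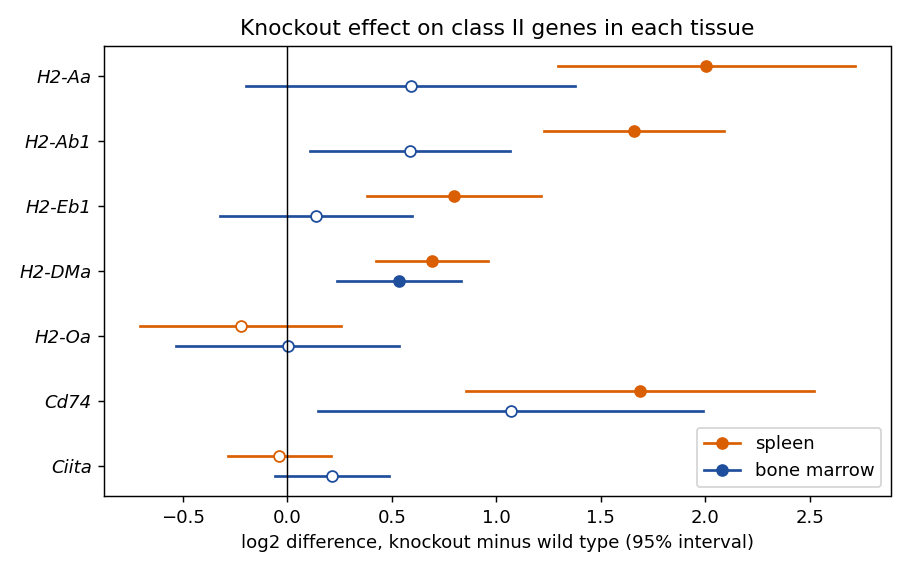
Fitted log2 difference, knockout minus wild type, of the 7 genes in spleen (orange) and bone marrow (blue), with 95% intervals. Filled points passed at an adjusted p under 0.05 and open points did not, and Ciita is from the fit with no filter. H2-Aa, H2-Ab1, H2-Eb1, Cd74 and H2-DMa are filled in spleen and H2-DMa alone in bone marrow.

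The knockout effect was smaller in bone marrow than in spleen for 5 of the 6 tested genes, and the difference between the effects was tested as an interaction. It was -1.41 ± 0.52 for H2-Aa (95% interval -2.55 to -0.28) and -1.07 ± 0.31 for H2-Ab1 (-1.76 to -0.38, unadjusted p = 0.00535). After adjustment over all genes in limma neither passed (adjusted p = 0.442 and 0.338, n = 3 arrays per group). Of the 6 genes 0 were called in the interaction, 2 had an unadjusted p under 0.05, and 0.00836% of all tested genes were called. For H2-Eb1, H2-DMa, H2-Oa and Cd74 the interaction was -0.66, -0.16, 0.23 and -0.62. So the calls in spleen and their absence in bone marrow do not show that the tissues differed.

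Bone marrow and spleen were also compared within each genotype. In wild type NK cells 0 of the 6 genes were called (limma, 1 at an unadjusted p under 0.05), where 5.37% of all tested genes were, and the differences ran from -0.09 for H2-DMa to 0.58 for H2-Aa. In knockout NK cells 0 of 6 were called (limma, 4 at an unadjusted p under 0.05), where 0.318% of all tested genes were, and they ran from -0.84 for H2-Aa to 0.75 for H2-Oa. The order of the 4 group means was the same for H2-Aa, H2-Ab1 and H2-Eb1: wild type spleen lowest, then wild type and knockout bone marrow, with knockout spleen highest. For H2-Aa these means were 6.44 ± 0.76, 6.95 ± 0.35, 7.67 ± 0.04 and 8.38 ± 0.39 (SD, n = 3 arrays per group). The arrays of the lower pair of groups overlapped each other, and those of the upper pair did not. Cd74 followed the same order with means of 6.18, 6.27, 7.37 and 7.85, while H2-DMa was lowest in wild type bone marrow (7.50 against 7.62 in wild type spleen). H2-Oa was ordered by tissue, with both spleen groups (7.14 in knockout and 7.36 in wild type) below both bone marrow groups (7.88 and 7.89).

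Arrays were also set side by side within each range of array numbers. In the spleen, the larger range held 2 wild type arrays and 1 knockout array and the smaller range 1 and 2. The knockout minus wild type differences in these ranges were 2.03 and 2.23 for H2-Aa, 1.98 and 1.42 for H2-Ab1, and 1.23 and 0.46 for H2-Eb1. They were 0.87 and 0.51 for H2-DMa and 1.32 and 2.43 for Cd74. The 5 genes thus lay higher in knockout within both ranges, on 3 arrays each. In bone marrow only the larger range held both genotypes, with 1 wild type and 3 knockout arrays, and the differences there were 1.09 for H2-Aa, 0.76 for H2-Ab1, 0.33 for H2-Eb1, 0.52 for H2-DMa and 1.84 for Cd74. Every knockout array lay above every wild type array for 5 of the 6 tested genes in each tissue, the same 5 genes in both. That separation held for 14.0% of all tested genes in spleen and 16.4% in bone marrow.

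In the spleen groups 1 array was often high for several members. Within wild type spleen, array 2 was the highest for H2-Aa, H2-Ab1, H2-Eb1, H2-Oa and Cd74. Within knockout spleen, array 3 was the highest for H2-Aa, H2-Ab1, H2-Eb1, H2-DMa and H2-Oa, and array 2 the lowest for H2-Aa, H2-Ab1, H2-Eb1, H2-DMa and Cd74. The bone marrow groups were more divided. In wild type the highest array was 3 for H2-Aa and H2-Eb1, 2 for H2-Ab1, H2-Oa and Cd74, and 1 for H2-DMa. In knockout it was 3 for H2-Ab1, H2-Eb1 and H2-DMa, 1 for H2-Oa and Cd74, and 2 for H2-Aa. The spread of H2-Aa among the 3 arrays was 1.32 in wild type spleen and 0.08 in knockout bone marrow. Each array comes from 1 RNA sample, so members do not vary independently between arrays.

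The proteins that bind class II promoters were considered next, from a list of 7 genes. Of the 7, all tested, 1 rose in spleen, where 5.48% of all tested genes were called higher. In bone marrow 0 were called (limma, 0 at an unadjusted p under 0.05), and the medians were -0.05 in spleen and -0.08 in bone marrow. The one that rose was Rfx5, the DNA-binding subunit of RFX, at 6.67, 6.42 and 6.49 in wild type spleen and 6.95, 7.25 and 6.95 in knockout spleen. Its arrays did not overlap, and it rose by 0.51 ± 0.11 in spleen (limma, adjusted p = 0.0158, n = 3 arrays per group) and by 0.37 ± 0.08 over both tissues (adjusted p = 0.00641). The spleen call was lost without wild type array 2 (0.47, adjusted p = 0.0549) and without wild type array 3 (0.44, adjusted p = 0.136). In bone marrow it was 6.64, 6.69 and 6.71 in wild type and 6.94, 6.89 and 6.80 in knockout, a difference of 0.23 ± 0.13 (adjusted p = 0.292).

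Genes that lead to Ciita transcription, such as interferon gamma and its signalling chain, were not called higher. Of 10 measured, 7 were tested, 0 rose and 2 fell in each tissue, where 3.63% of all tested genes were called lower in spleen and 4.73% in bone marrow. Ifng, the interferon gamma gene, fell by 1.35 ± 0.30 in spleen (limma, adjusted p = 0.0145, n = 3 arrays per group) and differed by -2.08 ± 0.33 in bone marrow (adjusted p = 0.00247). Its arrays were at 10.48, 10.33 and 10.66 in wild type spleen and 9.21, 8.56 and 9.41 in knockout spleen. Without wild type spleen array 3 its spleen difference was -1.02 (adjusted p = 0.161), and without wild type marrow array 1 its marrow difference was -1.91 (adjusted p = 0.0502). Jak1, a kinase of the interferon gamma receptor, fell too, with differences of -0.44 ± 0.09 and -0.47 ± 0.10 (limma, adjusted p = 0.0114 and 0.017, n = 3 arrays per group), and its calls were lost without the same 2 arrays (adjusted p = 0.0717 and 0.0838). Ifngr2, Irf4 and Spi1 lay below the filter.

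Genes of endosomes and lysosomes, of which only some trim antigens or the invariant chain, moved in both directions. Of 12 genes 10 were tested, and 2 rose in spleen, where 5.48% of all tested genes were called higher. In bone marrow 0 were called (limma, 4 at an unadjusted p under 0.05). The ones that rose were Asah1, an acid ceramidase of lysosomes, by 0.48 ± 0.11, and Ctsc, the protease cathepsin C, by 0.54 ± 0.15 (limma, adjusted p = 0.0189 and 0.0498, n = 3 arrays per group). Ctsc was called in 8 of 21 alternative settings and Asah1 in 18, lost without wild type spleen 2 or 3 or knockout spleen 3. Over both tissues 4 rose, where 8.81% of all tested genes were called higher, among them Lamp1 (0.42 ± 0.09, limma adjusted p = 0.00635), a lysosomal membrane protein. In the same comparison 2 fell (10.3% of all tested genes were called lower), among them Ifi30 (-0.36 ± 0.10, limma adjusted p = 0.0248), a reductase that opens disulfide bonds of antigens. Ctss, named here after its values were seen because cathepsin S cuts the invariant chain, was the other gene that fell (-0.42 ± 0.12, adjusted p = 0.0321). Its level was 7.79, 8.18 and 8.24 in wild type spleen and 7.79, 7.38 and 7.79 in knockout spleen, which meet at their edge. Ctsh and Lgmn lay below the filter.

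Costimulatory ligands, which antigen-presenting cells show along with class II, were not called in either tissue. Of 7 genes 5 were tested, with 0 called in spleen (limma, 0 at an unadjusted p under 0.05) and 0 in bone marrow (2 at an unadjusted p under 0.05). Over both tissues Cd274, which encodes the inhibitory ligand PD-L1, fell by 0.42 ± 0.12 (limma, adjusted p = 0.03, n = 3 arrays per group), where 10.3% of all tested genes were called lower. Cd86 and Tnfsf4 lay below the filter. Of the ubiquitin ligases that remove class II from the surface, Marchf1 lay below the filter and Marchf8 differed by -0.05 in spleen and 0.05 in bone marrow, not called.

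Genes of class I presentation, which shows cytosolic peptides to CD8 T cells, rose in part in the spleen. Of 15 listed genes 12 were tested, and 5 rose and 0 fell there, where 5.48% of all tested genes were called higher, with a median of 0.29 against -0.01. Pdia3, a chaperone of the peptide-loading complex, rose by 0.57 ± 0.10, and the immunoproteasome subunits Psmb10 and Psmb8 by 0.62 ± 0.12 and 0.47 ± 0.11 (limma, adjusted p = 0.00423, 0.00768 and 0.0173, n = 3 arrays per group). Erap1, which trims peptides in the endoplasmic reticulum, rose by 0.53 ± 0.13 (adjusted p = 0.023). The fifth, named after its values were seen, was Tapbp, which links class I molecules to the peptide transporter (0.56 ± 0.16, adjusted p = 0.0495). Of 21 alternatives Pdia3 was called in 21, Psmb10 in 20, Psmb8 and Erap1 in 18 and Tapbp in 7. Psmb10 was lost without knockout spleen 3, Psmb8 without it or wild type spleen 2 or 3, and Erap1 without wild type spleen 1 or 3 or where only the spleen arrays were fitted. In bone marrow 0 of 12 were called (limma, 2 at an unadjusted p under 0.05), with a median of 0.06. B2m, the class I light chain, and Nlrc5, the class I counterpart of Ciita, were named after their values were seen. B2m differed by 0.02 ± 0.09 in spleen and 0.05 ± 0.10 in bone marrow, and Nlrc5 by 0.29 ± 0.18 and -0.43 ± 0.20, none of them called. H2-K1, H2-D1 and H2-T23 have no probe set of their own in the annotation.

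**Figure D3:**
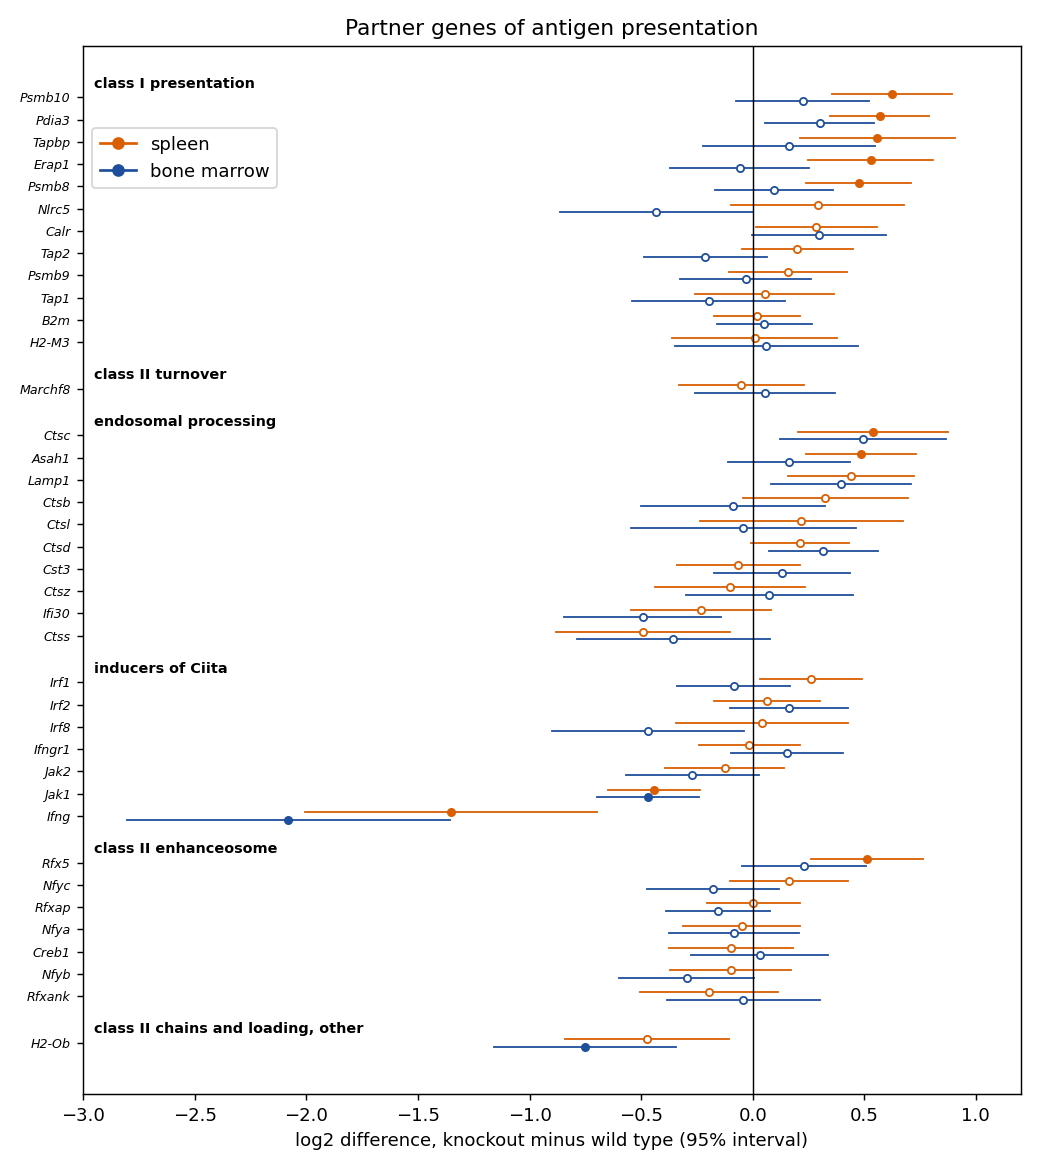
Fitted log2 difference, knockout minus wild type, of the tested partner genes of antigen presentation in spleen (orange) and bone marrow (blue), with 95% intervals, grouped by role. Filled points passed at an adjusted p under 0.05. H2-Ob, Jak1 and Ifng are the filled points below 0, and the filled points above 0 are Rfx5, Asah1, Ctsc and 5 class I genes, all in spleen.

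Because other cells make more class II than NK cells do, markers of such cells were read in the same arrays. Of 18 dendritic cell markers 9 were tested. In each tissue 0 fell and 2 rose, where 5.48% of all tested genes in spleen and 3.92% in bone marrow were called higher. The 2 genes were Itgax (CD11c), which mouse NK cells make as well, with rises of 1.36 ± 0.11 in spleen and 1.46 ± 0.12 in bone marrow, and the transcription factor Tcf4, with 0.64 ± 0.12 and 0.67 ± 0.13 (limma, adjusted p at most 0.00851, n = 3 arrays per group). Without wild type spleen 3 the spleen call of Tcf4 was lost (adjusted p = 0.0606), and without wild type marrow 1 the marrow call (adjusted p = 0.0813). Over both tissues, where 8.81% of all tested genes were called higher and 10.3% lower, Ccr9 rose too and Batf3 fell. The summed linear signal of the 18 genes was 2374 to 2468 in wild type spleen and 4624 to 4874 in knockout spleen, and 2045 to 2386 and 3731 to 4263 in bone marrow. Without Itgax, an alternative chosen after seeing the data, it was 1034 to 1102 and 1135 to 1198 in spleen, higher in knockout without overlap. In bone marrow it was 1089 to 1178 and 1108 to 1277, which overlapped.

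The defining dendritic cell markers Flt3, Zbtb46, Xcr1, Clec9a, Cd209a and Siglech stayed low. Of the 6, 5 lay below the filter, and Zbtb46 had differences of -0.07 in spleen and 0.25 in bone marrow (limma, adjusted p = 0.796 and 0.241, n = 3 arrays per group). Their summed signal was 216 to 230 in wild type spleen and 201 to 230 in knockout spleen, which overlapped. In the marrow the sum was 199 to 207 in wild type and 220 to 226 in knockout, which did not overlap. The B cell markers Cd79a, Ms4a1 and Pax5 summed to 87.1 to 100.5 and 91.3 to 109.5 in spleen and to 84.9 to 139.5 and 92.4 to 107.1 in bone marrow. The macrophage markers Csf1r, Adgre1 and C1qa summed to 90.9 to 111.9 and 94.1 to 113.0 in spleen and to 91.8 to 102.3 and 101.6 to 120.0 in bone marrow. Arrays have no true zero, so these sums include background, and the part of such cells in the class II differences was not tested.

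Several markers could not be tested because they lay below the filter. They were Clec10a, Clec4a4, Cd24a and Tlr3 of the dendritic cell list, and Cd79a, Ms4a1, Ebf1, Fcer2a, Cr2, Blnk, Bank1, Fcrla and Fcmr of the B cell list. They were also Csf1r, Adgre1, Cd14, C1qb, C1qc, Fcgr1, Cd163, Marco, Mrc1 and Vcam1 of the monocyte and macrophage list, Il23r, Ccr6 and Lif of innate lymphoid cells, Ltf, Ly6g, Mmp8, Mmp9, Csf3r and Cxcr2 of granulocytes, and Cd4 and Cd8b1 of T cells. For the lists that follow, 5.48% of all tested genes were called higher and 3.63% lower in spleen. In bone marrow these shares were 3.92% and 4.73%, and over both tissues 8.81% and 10.3%. Of the B cell list (15 of 16 genes measured, 6 tested) 0 were called in spleen (limma, 1 at an unadjusted p under 0.05) and Cd72 fell in bone marrow. The summed signal of its 15 measured genes was 936 to 1001 in wild type and 801 to 959 in knockout spleen, and 869 to 1043 and 785 to 832 in bone marrow, where the genotypes did not overlap. Of the monocyte and macrophage list 5 were tested, and Ccr2 and Ms4a6c fell in spleen and 0 were called in bone marrow (limma, 1 at an unadjusted p under 0.05). Its other tested genes were not called in spleen: Lyz2 differed by 0.45, C1qa by 0.19 and Cd68 by -0.27. The 15 measured genes of this list summed to 2850 to 3131 in wild type and 1485 to 1642 in knockout spleen. In bone marrow they summed to 3249 to 3954 and 2638 to 3027, so the sums were lower in knockout in both tissues without overlap. No sum was taken without Ccr2 and Ms4a6c. Of the group 2 and 3 innate lymphoid list 4 were tested, and Icos fell in spleen and 0 were called in bone marrow (limma, 2 at an unadjusted p under 0.05). Over both tissues Icos fell (-0.46 ± 0.09, limma adjusted p = 0.00394) and Rora rose (0.54 ± 0.10, adjusted p = 0.00332). Their 7 measured genes summed to 970 to 1050 in wild type and 895 to 949 in knockout spleen, and to 939 to 998 and 927 to 1105 in bone marrow. Of 8 tested granulocyte markers 1 rose in spleen (S100a8) and 4 fell in bone marrow. Their sums were 618 to 1193 in wild type and 1000 to 2147 in knockout spleen, and 4717 to 5571 and 1623 to 3176 in bone marrow, so they overlapped between genotypes in spleen and were lower in knockout in bone marrow. Of 7 tested T cell markers 2 fell in spleen and 4 in bone marrow, with -1.05 ± 0.23 and -3.14 ± 0.26 for Cd3d (limma, adjusted p = 0.0142 and 2.14e-05, n = 3 arrays per group). Cd3g and Cd3e fell in bone marrow (adjusted p = 0.00128 and 0.0265), Cd3g by 1.69 ± 0.24, and in spleen they stood at 0.44 ± 0.22 and 0.55 ± 0.22, not called (adjusted p = 0.266 and 0.163). Cd28 fell by 0.92 ± 0.14 in spleen (adjusted p = 0.0019) and differed by -1.28 ± 0.16 in bone marrow (adjusted p = 0.00047). The 9 measured T cell genes summed to 1774 to 1844 in wild type and 1410 to 1728 in knockout spleen, and to 2813 to 2955 and 1354 to 1558 in bone marrow. The part of all these cells in the class II differences was not tested.

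**Figure D4:**
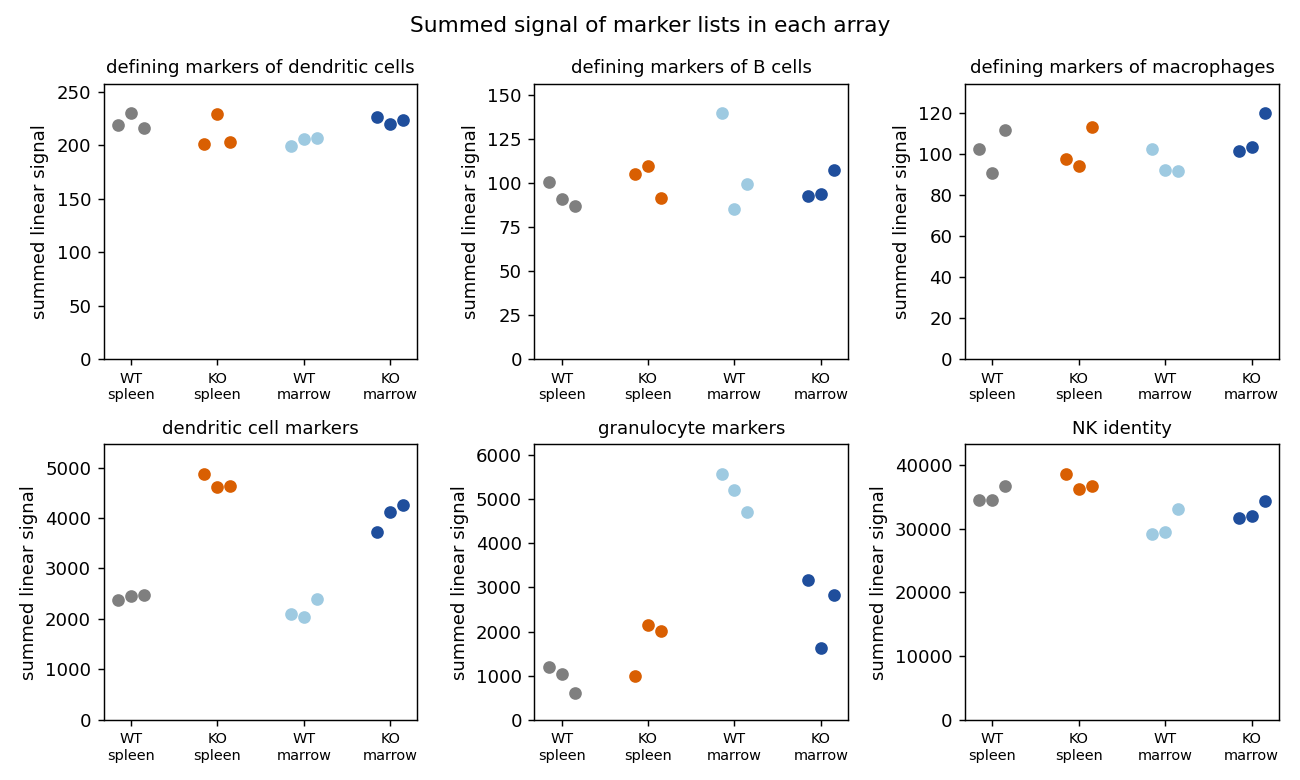
Summed linear signal of marker lists in each of the 12 arrays, in groups of 3 (points are arrays, in replicate order, axes from 0). The sums of the 6 defining dendritic cell markers overlap between genotypes in spleen (216 to 230 in wild type, 201 to 230 in knockout). In bone marrow they do not (199 to 207 in wild type, 220 to 226 in knockout). The 18-gene dendritic cell list, which holds Itgax, is higher in all knockout arrays, from 3731 to 4874, than in the wild type arrays, from 2045 to 2468.

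Finally, the genes whose profile was most like that of the class II genes were found. Each gene was centred on its own mean over the 12 arrays, and the root mean square distance to the mean centred profile of the 6 tested members was taken. The nearest were Rmnd5b (0.159), a subunit of a ubiquitin ligase, Stau1 (0.169), a binder of double-stranded RNA, the homeobox gene Hoxa10 (0.173), the membrane protein gene Ms4a6b (0.176) and the kinase gene Cdk16 (0.193). The members' own distances, to a mean that includes them, were 0.248 for H2-Ab1, 0.254 for H2-Eb1, 0.277 for H2-DMa, 0.395 for H2-Aa, 0.427 for Cd74 and 0.624 for H2-Oa. The median tested gene stood at 0.501, and a gene flat over all arrays would stand at 0.464. Ms4a6b rose from 10.23 to 11.15 in spleen, 0.93 ± 0.11 in the fit (limma, adjusted p = 0.000335), and Rmnd5b from 7.38 to 8.22 (0.88 ± 0.14, adjusted p = 0.00236, n = 3 arrays per group). These genes were picked for their likeness, so their differences are a description.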

How the data were processed

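Arrays of 12 samples in 4 groups of 3 gave log2 signals per probe set, deposited by the authors after Affymetrix Expression Console and RMA (background correction, quantile normalization, probe summary), per the submitters' processing notes. The sources used here do not give their versions. RNA was extracted with Trizol and amplified with a NuGEN Ovation PicoSL kit, per the labels' protocols. RMA compresses differences between dim signals. Of 35556 probe sets 21789 carried 1 symbol, 1621 several and 12146 none, and the brightest with 1 symbol stood for each gene. Array medians were 5.75 to 5.87, and no further scaling was applied. Arrays have no read depth, and their number limits the precision.

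A mean per group and a term for the number range were fitted in limma 3.58.1 (R 4.3.3, 7 residual and 4.74 prior degrees of freedom) over all 11963 genes above the 40th percentile of mean signal. Differences are log2 ± standard error, tests are two-sided, and calls were made at an adjusted p (Benjamini-Hochberg) below 0.05. The steps were tested on simulated data. Members and lists were chosen with earlier results of these data known. From each list, genes called in any of 6 comparisons were named, at most 4 by smallest p, with genes below the filter, the other class II chain genes and the 5 nearest in profile. Deviations of same-numbered arrays of different groups were weakly correlated (r from -0.02 to 0.24 over 18 pairs, 6 above 0.1). Arrays of different numbers were not compared, so these values do not settle whether numbers mark pairs. Numbers were not taken as pairs in the main fit. Alternatives covered scaling, filter, probe set, covariate, samples fitted, variance moderation, replicate block and each array left out.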

Additional observations from a re-analysis of the deposited data

How the results depend on the processing

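The count of the 6 tested class II genes called in spleen was 5, and 5 under every alternative processing except the fit of the spleen arrays alone, where it was 4 (H2-Eb1 lost, adjusted p = 0.10). With 1 array left out it ran from 2 (without knockout spleen 3) to 5, and it was 3 without wild type spleen 3. In bone marrow the count of 1 became 2 without the number-range term (H2-Ab1, 0.70, adjusted p = 0.0281), 3 in the fit of the bone marrow arrays alone (H2-Aa, 0.72, adjusted p = 0.0343, and H2-Ab1, 0.70, adjusted p = 0.0134), and ran from 0 to 2 with 1 array left out. Over both tissues it ran from 4 to 5. H2-Eb1 was called there in 7 of the 12 fits with 1 array left out (limma, highest adjusted p = 0.128, without wild type bone marrow 1). In the interaction and between tissues the count was 0 throughout. H2-Aa and H2-Ab1 were called in spleen in 21 of 21 alternatives, H2-DMa in 20, Cd74 in 19 and H2-Eb1 in 15. The replicate number as a block left the counts at 5 in spleen, 1 in bone marrow, 5 over both and 0 elsewhere.

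Of all tested genes 1090 were called in spleen and 1035 in bone marrow. These counts moved in spleen to 650 when knockout array 3 was left out and 543 for wild type array 3, and in bone marrow to 1590 without the number-range term and 372 without wild type bone marrow 1. In the interaction the count of 1 became 5 with arrays centred on their medians or with the block, 3 with trended robust moderation, 2 without the range term and 0 with the filter at the 60th percentile. Between tissues 643 were called in wild type and 38 in knockout, which became 977 with centred arrays and 87 without the range term, and 83 to 704 and 1 to 38 with 1 array left out. With 3 arrays a group, signals near background limit what can be said of Ciita, H2-Ea and H2-Eb2.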
